A study of Mus musculus with 7 samples.

Results

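HDAC1 binding at the genes of the proteasome was read from a list of HDAC1 ChIP-seq peaks of mouse limb buds. The members were the protein-coding genes of the GENCODE M21 annotation whose symbols start with Psma to Psmg followed by a number, which gave 50 of 21851 protein-coding genes. A gene was counted as having an HDAC1 peak when a peak overlapped, by at least 1 bp, a window around one of its transcription start sites (TSS) that reached 2 kb upstream and 1 kb downstream. By this count, 31 of the 50 members (62.0%, 95% Wilson interval 48.2 to 74.1%) had a peak, where 44.1% of all protein-coding genes did. The gap was smaller among strong peaks. With the first 7673 peaks of the ranked list, 34.0% of members (interval 22.4 to 47.8%) and 30% of all genes had one. The members' interval thus took in the share of all genes. It did so too when the peak had to cover the TSS (31.2 to 57.7% against 32.8%). The same held with the 5-prime end of each gene as its only TSS (40.4 to 67% against 41.6%).

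Samples were forelimb and hindlimb buds of Swiss Webster mouse embryos at E11.5, from the stage of 40 to 44 somites, with 3 litters given as the source of each. There were 4 HDAC1 ChIP samples, made with the antibody Abcam ab7028, and 3 input samples of chromatin without antibody, and the labels name no mutant allele and no treatment for either group. The peaks were deposited as 1 list over all ChIP samples, so no value below has a replicate error, and a peak carries neither a read number nor a height. Limb buds hold mesenchyme, ectoderm and other cells together, and a peak list gives no marker level against which the cell types could be checked.

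The proteasome is the large protease that degrades proteins tagged with ubiquitin in the cytoplasm and nucleus of every cell. Its core particle is a barrel of stacked rings, with alpha subunits (Psma genes) forming the outer gates and beta subunits (Psmb genes) forming the inner rings, where a few of them carry the cutting sites. The regulatory particle sits on the end of the barrel, and its base, with a ring of ATPases (Psmc genes), unfolds the substrate, while its lid (Psmd genes) removes the ubiquitin chain. In immune cells and under interferon the cutting subunits are exchanged for immune forms, and other family members activate, inhibit or assemble the particle. HDAC1 is a deacetylase that removes acetyl groups from histones, and it is commonly found by ChIP-seq at active promoters as well as at repressed genes.

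Sequences just upstream of the TSS are shown for the best-ranked member with a peak in each class and for the immune or tissue-restricted members, as far as the RefSeq promoter table (GRCm38.p6) holds them and no annotated exon lies there, which leaves out Psma8, Psmb8, Psmb9, Psmd3, Psmd13 and Psmg2. Psma7 encodes an alpha subunit of the core (chr2:180042465-180042508, minus strand), Psmd1 the largest base subunit of the regulatory particle (chr1:86064369-86064618, plus strand) and Psmg1 an assembly chaperone (chr16:95990961-95991210, minus strand), and all 3 had a peak there. Psmb10 encodes an immunoproteasome subunit (chr8:105938445-105938642, minus strand) and Psmb11 the thymus form (chr14:54625060-54625309, plus strand), and neither had one at its TSS. Capitals mark matches on either strand to 6 motifs, namely the antioxidant response element core TGACNNNGC, the box CCAAT, the GC box GGGCGG, the ETS core CCGGAA, the element TATAAA and the cAMP response element TGACGTCA, and each sequence is read 5′ to 3′ along its gene.
Psma7: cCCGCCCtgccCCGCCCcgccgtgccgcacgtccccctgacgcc
Psmd1: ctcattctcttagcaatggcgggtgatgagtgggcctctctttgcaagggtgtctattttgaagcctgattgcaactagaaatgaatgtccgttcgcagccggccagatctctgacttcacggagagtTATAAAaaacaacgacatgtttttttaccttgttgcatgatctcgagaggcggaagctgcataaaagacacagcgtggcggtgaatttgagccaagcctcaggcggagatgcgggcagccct
Psmg1: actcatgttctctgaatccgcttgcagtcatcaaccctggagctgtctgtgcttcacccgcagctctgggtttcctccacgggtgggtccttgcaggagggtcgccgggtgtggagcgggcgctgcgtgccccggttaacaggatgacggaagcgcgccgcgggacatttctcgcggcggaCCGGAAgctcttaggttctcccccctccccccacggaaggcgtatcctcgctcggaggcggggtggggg
Psmb10: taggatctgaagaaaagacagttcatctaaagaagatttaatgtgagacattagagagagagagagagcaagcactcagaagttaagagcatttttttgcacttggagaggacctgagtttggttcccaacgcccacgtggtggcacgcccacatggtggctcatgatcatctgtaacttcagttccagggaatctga
Psmb11: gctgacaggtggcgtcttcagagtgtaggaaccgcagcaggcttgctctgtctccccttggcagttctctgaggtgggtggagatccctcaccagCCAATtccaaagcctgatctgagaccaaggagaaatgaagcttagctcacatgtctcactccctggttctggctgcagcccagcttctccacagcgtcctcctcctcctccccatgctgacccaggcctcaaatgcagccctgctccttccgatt
The Psma7 stretch is short because an exon of its divergent neighbour Ss18l1 begins directly upstream of it, and positions here count from the RefSeq start. The stretches of Psma7 and Psmd1 lay wholly inside an HDAC1 peak (44 of 44 and 250 of 250 bases), and that of Psmg1 in 239 of 250 bases. Counted over these stretches, CpG pairs numbered 7 in the 44 bases of Psma7, 12 in Psmd1 and 23 in Psmg1. They numbered 3 in the 198 bases of Psmb10 and 4 in the 250 bases of Psmb11. These genes do not stand for all immune members. Psmb8 and Psmb9, also without a peak, had higher ratios of observed to expected CpG pairs, given below.

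The share of genes with a peak varied between the classes of subunits. Of the 17 genes of the regulatory particle, 15 had one (88.2%, interval 65.7 to 96.7%). Of the 14 constitutive genes of the core, 8 had one (57.1%, interval 32.6 to 78.6%). None of the 5 immune or tissue-restricted core genes did (0%, interval 0 to 43.4%). Of the 13 genes for activators, inhibitors and assembly factors, 7 had one (53.8%, interval 29.1 to 76.8%), and 4 (30.8%) when only the 5-prime end of each gene was used as its TSS. The remaining member, Psmc3ip, meets the symbol rule but encodes a factor of meiotic recombination and not a proteasome subunit, and it had a peak. With all peaks and the window above, the intervals of core and regulatory genes overlapped, while those of regulatory and immune genes did not. Core and immune intervals overlapped too. The classes were chosen with earlier results of these data known, and the intervals do not allow for that choice. The upper bound of the immune genes (43.4%) lay just below the 44.1% of all protein-coding genes in this setting. In others the share of all genes lay inside the immune interval. This was so with 500 bp on both sides (42.7%), the 5-prime end only (41.6%) and 5 kb on both sides (46.2%, interval 3.62 to 62.4%). It was also so with the first 7673 peaks (30%) and when the peak had to cover the TSS (32.8%). Regulatory and immune intervals did overlap with the first 7673 peaks (21.6 to 64% against 0 to 43.4%). They also overlapped when the peak had to cover the TSS (41.3 to 82.7% against 0 to 43.4%). These intervals cover only the number of genes, which are not replicates of the experiment, and no test was run between classes.

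**Figure D1:**
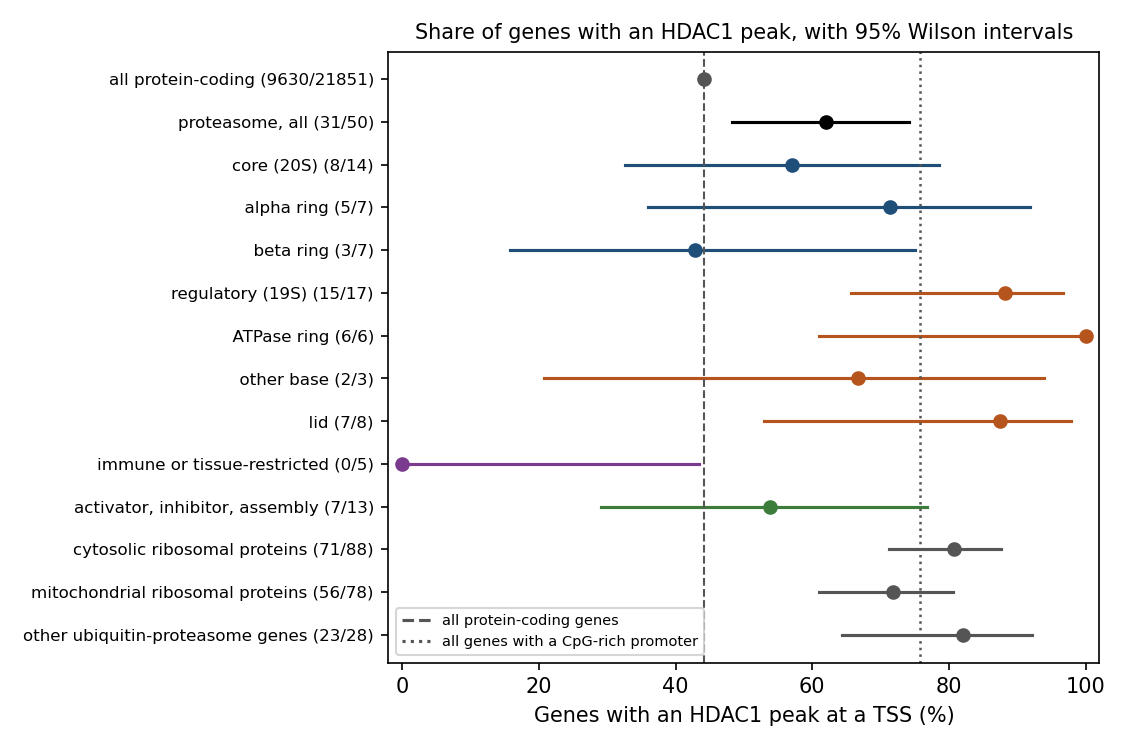
The x axis gives the percentage of genes with an HDAC1 peak near a TSS for each class of proteasome gene and for comparison sets, with the counts in brackets, points for the share and bars for the 95% Wilson interval. The dashed line marks all protein-coding genes (44.1%) and the dotted line all genes with a CpG-rich promoter (75.7%), and a reader should see regulatory genes at 88.2%, core genes at 57.1% and immune or tissue-restricted genes at 0%.

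Within the regulatory particle, all 6 genes of the ATPase ring had a peak. These are Psmc1 to Psmc6, whose products pull substrates into the core. Of the 8 lid genes, 7 had one, among them Psmd14, the deubiquitinase that cuts the chain off the substrate. Only Psmd6 of the lid had none. Of the 3 other genes of the base, the scaffold genes Psmd1 and Psmd2 had a peak, and Psmd4, whose product is a ubiquitin receptor, did not.

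Within the core, 5 of the 7 alpha genes (71.4%) and 3 of the 7 constitutive beta genes (42.9%) had a peak. Alpha genes with one were Psma3, Psma4, Psma5, Psma6 and Psma7, and those without one were Psma1 and Psma2. The beta genes with one were Psmb1, Psmb2 and Psmb3, which encode structural subunits without a cutting site. Psmb4, also structural, had none. The constitutive catalytic subunits are encoded by Psmb5, Psmb6 and Psmb7, and none of these 3 genes had a peak. Together with their immune and thymus counterparts Psmb8, Psmb9, Psmb10 and Psmb11, 0 of 7 genes for catalytic beta subunits had a peak (interval 0 to 35.4%), a grouping made after the values were seen. Because of that choice the interval cannot be read against the 44.1% of all protein-coding genes with a peak.

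Among the assembly factors, the core chaperone genes Psmg1 and Psmg2 had a peak while Psmg3 and Psmg4 did not. For the chaperones of the base, Psmd5 and Psmd9 had one and Psmd10 did not. Psmf1, which encodes the inhibitor PI31, had one. Of the activators, Psme3 (nuclear PA28 gamma) and Psme4 (PA200) had one, and Psme1, Psme2 and the closely related copy Psme2b did not. Psme1 and Psme2 encode the PA28 activator that interferon induces. Together with the immune subunits Psmb8, Psmb9 and Psmb10 they make 5 interferon-inducible members, of which 0 had a peak (interval 0 to 43.4%). Over all protein-coding genes the share was 44.1%. This was again a grouping made after the values were seen, and the interval does not allow for that choice. Psmb8, Psmb9 and Psmb10 were also counted among the immune and the catalytic genes above. Psme2b is a near copy of Psme2, so reads of the pair may not be assigned reliably.

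The order of the list was taken as the ranking by the peak caller, with rank 1 the strongest of 15347 peaks. Peak length had a median of 450 bp over the list, with 100 bp the shortest and 35050 bp the longest, in steps of 50 bp. The members held 36 distinct peaks, none of them in the windows of 2 members. Of the members with a peak, 27 had 1, 3 had 2 and Psmb1 had 3. At least 2 peaks were found at 12.9% of members with a peak, and at 21.4% of all genes with one. Where a gene had several, its best-ranked peak stands for it below.

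The best-ranked member peak was that of Psma7, at rank 145 and 2050 bp long (chromosome 2, 180041600 to 180043649), which was also the longest at any member. It ran from 1216 bp upstream to 833 bp downstream of the TSS and took in the start of the divergent gene Ss18l1, 76 bp away. All other core genes ranked far behind it. Psma5 came next at rank 3286 with 900 bp. Psmb3 followed at rank 5194 with a peak of 550 bp that ended 50 bp upstream of the TSS. Psmb1 was at 6529, Psma3 at 6911, Psma4 at 7920, Psma6 at 8655 and Psmb2 at 9023, with peaks between 300 and 650 bp. No core gene had its best peak among the last 3837 peaks of the list.

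Regulatory genes were spread over the whole list. Psmd13, a lid gene, led them at rank 373 with a peak of 800 bp (chromosome 7, 140882000 to 140882799) that also took in the TSS of Sirt3. The lid gene Psmd3 was at rank 644 with 950 bp (chromosome 11, 98682400 to 98683349). Psmd1 was at rank 1577 with 1000 bp (chromosome 1, 86064150 to 86065149). Psmd12, Psmc2, Psmd11 and Psmd2 lay between ranks 2939 and 3839, and among these Psmc2 had the longest peak, of 950 bp. The other 8 regulatory genes ranked from 8876 (Psmd7) to 14739 (Psmd14). Thus 6 of the 15 regulatory genes with a peak were among the first 3836 peaks and 6 among the last 3837. With the first 7673 peaks only, 7 of 17 regulatory genes (41.2%) and 5 of 14 core genes (35.7%) had a peak.

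The complete ATPase ring rested mostly on low-ranked peaks. Psmc2 was at rank 3085 and Psmc1 at 8885. Psmc3 was at 11795, Psmc5 at 11979, Psmc4 at 12886 and Psmc6 at 13250, all among the last 3837 peaks. Their median rank was 11887 and their median length 350 bp, against a median rank of 3127 and a median length of 800 bp for the 7 lid genes with a peak. With the last part of the list left out, at rank 7673, Psmc2 alone of the ATPase genes kept a peak.

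Among the activators, inhibitor and assembly factors, both core chaperone genes with a peak ranked high. Psmg2 was at rank 693 with 1650 bp, the second-longest peak at any member, running from 1099 bp upstream to 550 bp downstream of the TSS and reaching the window of Cep76. Psmg1 was at rank 866 with 550 bp (chromosome 16, 95990650 to 95991199). Psme3 was at rank 2938 with 800 bp and had a second peak of 300 bp at rank 6836. Psmf1 was at rank 6033, Psmd5 at 7482, Psmd9 at 11301 and Psme4 at 13980. Psmc3ip was at rank 10357 with a peak of 200 bp.

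Over all 31 members with a peak, the median rank was 6911 (95% interval of the median 3127 to 9023, over genes) and the median length 550 bp (interval 400 to 800 bp). All protein-coding genes with a peak had a median rank of 5174.5 and a median length of 650 bp. The first 3836 peaks of the list held 35.5% of the members' best peaks and 38.3% of those of all genes. The last 3837 held 22.6% against 12.7%. For the classes, median ranks were 6720 for core, 8876 for regulatory, and 6033 for activator, inhibitor and assembly genes, and median lengths were 575, 600 and 550 bp. The ranges of the classes overlapped throughout.

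**Figure D2:**
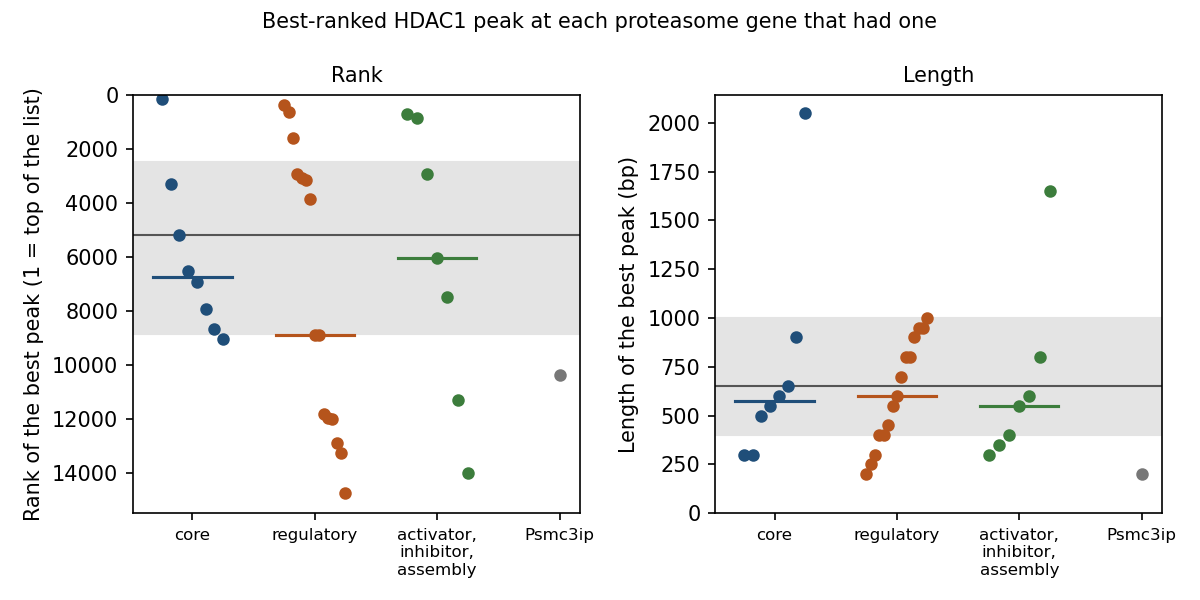
The left panel gives the rank of the best HDAC1 peak of each member (1 at the top of the axis) and the right panel its length in bp, with 1 point a gene, coloured bars for class medians, and a grey line and band for the median and the range between quartiles of all protein-coding genes with a peak. Psma7 stands at rank 145 and 2050 bp, and regulatory genes split into a group at ranks 373 to 3839 and a group at ranks 8876 to 14739.

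Most peaks lay on the start site itself. At 22 of the 31 members (71.0%) a peak covered a TSS, and at 74.5% of all genes with a peak. Most of the others lay downstream. At Psma6 the peak began 25 bp downstream of its nearest TSS, at Psmd11 25 bp, at Psmd5 13 bp, at Psmd7 65 bp, at Psmc6 162 bp, and at Psme4 224 bp. Psmc3 had the most distant peak of any member inside the window, from 500 to 799 bp downstream. At Psmb3 the peak lay upstream, from 599 to 50 bp before the TSS. Psmc3ip had a peak on each side, the better-ranked one starting 287 bp downstream and the other, at rank 10975, from 363 to 114 bp upstream.

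**Figure D3:**
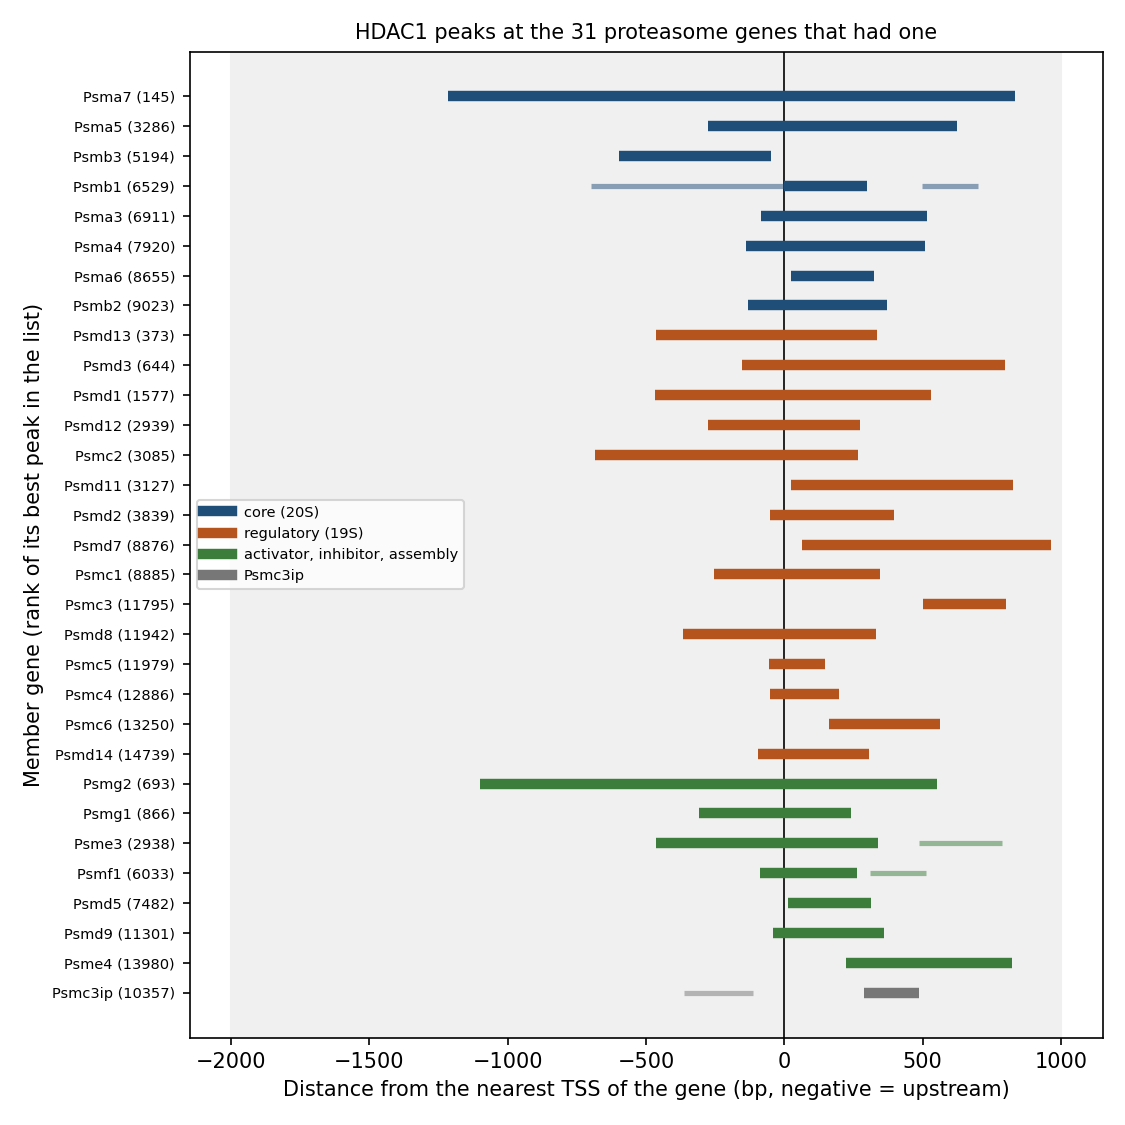
Each row is a member with a peak, labelled with its rank and coloured by class, and bars show the extent of its HDAC1 peaks in bp from the nearest TSS of the gene, thick for the best-ranked peak and thin for others, with the searched window in grey. Most bars cross the line at 0, the bar of Psma7 is the longest at 2050 bp, and those of Psmc3 and Psmb3 lie wholly on one side.

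Psmb10 was the member just outside the window. This immunoproteasome gene had 2 HDAC1 peaks within its own gene body on chromosome 8, at rank 12220 (105937150 to 105937399, 250 bp) and rank 9618 (105936800 to 105936999, 200 bp). The nearer of them began 1045 bp downstream of the TSS. With a window of 5 kb on both sides, Psmb10 was the only member gained, and 1 of 5 immune or tissue-restricted genes (20%) then had a peak. Psmc2 was the other member with peaks in its body beyond the window, at ranks 8164 and 9647, and both lay in the window of its divergent neighbour Dnajc2.

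The other members without a peak were far from any. Psmb8 and Psmb9 lie next to each other in the major histocompatibility region of chromosome 17, and the nearest peak to both was the one at rank 26, 5350 bp long, at Brd2 and H2-DMa (34117650 to 34122999). It was 74791 bp from Psmb8 and 64765 bp from Psmb9. The peptide transporter genes Tap1 and Tap2 of the same region, of which Tap1 starts 38 bp from Psmb9, had no peak either. Psmb11 was 15440 bp from the nearest peak and Psma8, a testis form of the alpha ring, 22802 bp.

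Of the constitutive core genes without a peak, Psmb5 was 14309 bp, Psma1 21327 bp, Psmb6 37114 bp, Psmb4 48562 bp and Psmb7 66813 bp from the nearest peak. Psma2 was the most isolated member, at 547991 bp. The regulatory genes Psmd4 and Psmd6 were 26144 and 107485 bp away. Psme1 and Psme2 had the same nearest peak, at rank 9387 by Dcaf11, 17411 and 30138 bp away. The values for the remaining genes were 29344 bp for Psmg3, 32565 bp for Psmg4, 90641 bp for Psme2b and 319622 bp for Psmd10. Apart from Psmb10, no member without a peak had one within 5 kb of a TSS.

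Promoter composition went with the presence of a peak among all genes, and the members were read against it. A promoter of 300 bp, from 250 bases before to 50 after the TSS, was called CpG-rich when its GC content was at least 50% and its ratio of observed to expected CpG pairs at least 0.6. Of all genes with a CpG-rich promoter 75.7% had an HDAC1 peak, and of those without a CpG-rich promoter 13.3% had one. It was read from the genome at the GENCODE TSS of highest CpG ratio, for 42 members. Psma8, Psmb1, Psmb2, Psmb7, Psmc3, Psmd3, Psmd7 and Psmg2 were not in the promoter table and were left out by choice. Of these, all but Psma8 and Psmb7 had a peak. For all genes the limit to the promoter table was not applied, and 21839 had a value. CpG-rich promoters were found at 32 of the 42 members (76.2%) and at 49.3% of all genes, or 52.1% of the 16314 genes that the promoter table also held.

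Of the 32 members with a CpG-rich promoter, 23 had a peak (71.9%, interval 54.6 to 84.4%), close to the 75.7% of all such genes and the 75.6% of those held by the promoter table. With promoters at the RefSeq start, added after the data were seen, it was 21 of 28 members (75%) against 76.0% of all such genes. Of the 10 others, 2 had one, namely Psmc1 and Psmd9. Psmc1 missed the limit on GC content (44.3%) with a ratio of observed to expected CpG of 1.03, and Psmd9 missed the limit on the ratio at 0.589. The part of CpG content in the difference between members and all genes was not tested. Among regulatory genes, all 11 with a CpG-rich promoter had a peak (interval 74.1 to 100%), and among activator, inhibitor and assembly genes 5 of 8 did. This complete share of regulatory genes depends on the start used. At the RefSeq start Psmd6, which had no peak, was CpG-rich too (53% GC and a ratio of 0.763). Of the 10 core genes with a CpG-rich promoter 6 had a peak. Nothing is read from this, since fewer than 80% of the core genes (11 of 14) have a value. The core genes without a value, Psmb1, Psmb2 and Psmb7, were left out by choice.

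Members without a peak were nevertheless often CpG-rich. They had a CpG-rich promoter in 9 of 17 cases (52.9%), against 21.4% of all genes without a peak. Members were also CpG-rich more often whether or not they had a peak (76.2% against 49.3%). Within CpG-rich promoters, the share with a peak was close to that of all genes (71.9% against 75.7%). Psma1 had 63.3% GC and a ratio of 0.934 and no peak, and Psmb5 had 51.3% GC and a ratio of 1.01 and no peak. The immune gene Psmb9 had 66.7% GC and a ratio of 0.756, and Psmb8 had 56.7% and 0.718. By contrast, Psmb10 had 46.3% GC with a ratio of 0.249 and Psmb11 57.3% with 0.165. At the RefSeq start, the ratio was 0.5996 for Psmb9, just under the limit, and 0.523 for Psmb8, so the CpG-rich call of both immune genes depends on the start used.

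**Figure D4:**
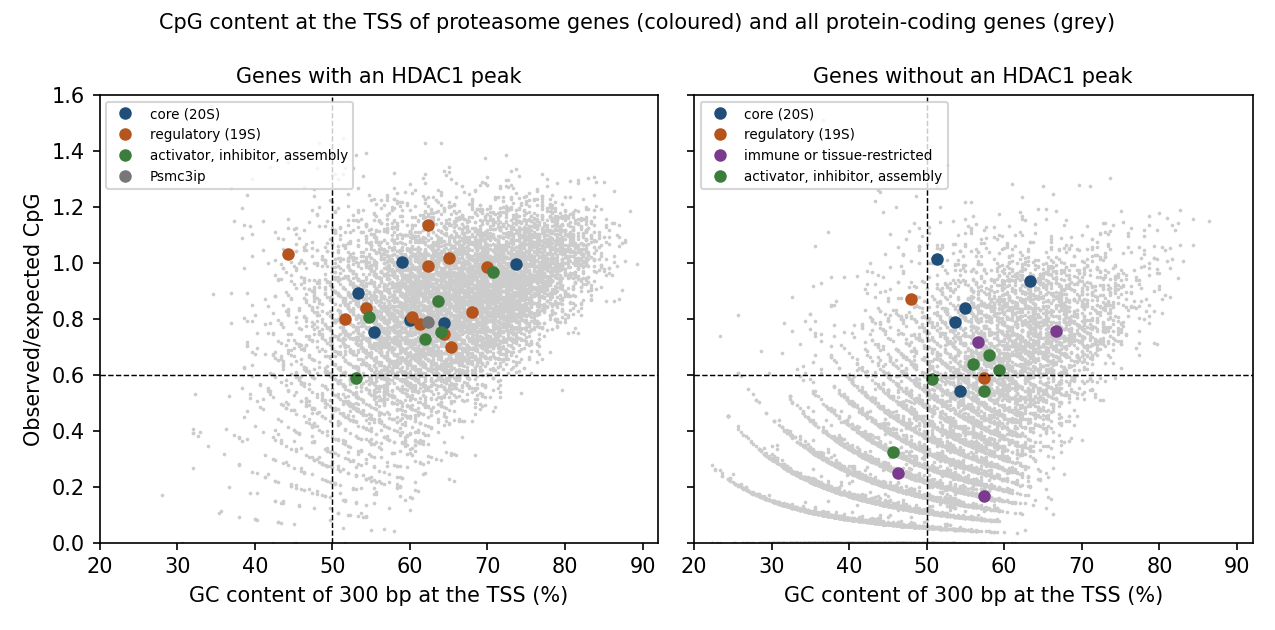
Each panel plots the ratio of observed to expected CpG against the GC content (%) of the 300 bp at the TSS, for genes with an HDAC1 peak on the left and without one on the right, with all protein-coding genes in grey and the 42 members with a value coloured by class. Dashed lines mark the limits of 50% GC and a ratio of 0.6. Of the members with a peak 23 of 25 lie above both limits, and of those without one 9 of 17 do.

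Of the 6 motifs searched, CCGGAA, the core recognised by ETS factors, had the widest gap in frequency between member promoters and all promoters. It was present on either strand in 20 of the 42 members (47.6%) and in 19.8% of all promoters of the table. By class it was present in 10 of 14 regulatory genes (71.4%), 6 of 12 activator, inhibitor and assembly genes (50%) and 3 of 11 core genes (27.3%). Of the immune or tissue-restricted genes, 0 of 4 had it. The motif and the regulatory class were singled out after the values were seen. Members with a peak had it in 14 of 25 cases (56.0%) and members without one in 6 of 17 (35.3%), where all genes with and without a peak had it in 29.2% and 11.8%. The GC box GGGCGG was in 54.8% of members and 48.3% of all promoters. CCAAT was in 35.7% and 38.5%, and TATAAA in 9.52% and 12.9%. TGACGTCA was in no member and in 2.43% of all promoters. These are matches of letters in a window, and nothing was measured here on the factors.

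The CCGGAA matches of the 10 regulatory genes are shown to let their flanks be compared, each as the match nearest the TSS with 10 bases on both sides, read along the motif, in capitals, from RefSeq (GRCm38.p6).
Psmc1 (chr12:100110165-100110190, gene on the plus strand): atcgccaccgCCGGAAgtgcatccac
Psmc2 (chr5:21785182-21785207, gene on the plus strand): gagccccatcCCGGAAgtgctcactg
Psmc5 (chr11:106256080-106256105, gene on the plus strand): gcccattgacCCGGAActgttctcgg
Psmc6 (chr14:45329714-45329739, gene on the plus strand): ggcgggccagCCGGAAggggcggagc
Psmd11 (chr11:80428609-80428634, gene on the plus strand): gccgccgacgCCGGAAacacacaccc
Psmd12 (chr11:107479502-107479527, gene on the plus strand): gtcactcgcaCCGGAAgtcgcccgct
Psmd13 (chr7:140882378-140882403, gene on the plus strand): gcccgcggtgCCGGAAgtgagcgagc
Psmd2 (chr16:20651617-20651642, gene on the plus strand): gtcctccagaCCGGAAgcgccctgcg
Psmd4 (chr3:95042724-95042749, gene on the minus strand): tacagctgttCCGGAAgctgctgcga
Psmd6 (chr14:14120975-14121000, gene on the minus strand): agagacgcgaCCGGAAgtcagactgg
In Psmc1, Psmc2, Psmd12, Psmd13 and Psmd2 the whole stretch of 26 bases lay inside an HDAC1 peak. At Psmc5 the peak covered the last 6 of the bases, which lie downstream of the match. At Psmc6 and Psmd11 it began downstream of the match, and Psmd4 and Psmd6 had no peak. The match lay between 125 bases upstream and 5 bases downstream of the TSS in all 10 genes.

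TGACNNNGC, the core of the antioxidant response element, is a motif through which the factors Nfe2l1 and Nfe2l2 can raise proteasome genes. It was found in 6 of the 42 member promoters (14.3%) and in 13.3% of all promoters, so the members did not stand out for it in this window. The matches are shown for Psmb5, Psmb6, Psmc6, Psmd9 and Psme4, which had 10 bases of promoter on both sides, and the member left out is Psmd12. Letters of the motif that were fixed are in capitals.
Psmb5 (chr14:54618024-54618052, gene on the minus strand): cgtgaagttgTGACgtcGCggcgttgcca
Psmb6 (chr11:70525338-70525366, gene on the plus strand): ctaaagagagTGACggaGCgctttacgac
Psmc6 (chr14:45329587-45329615, gene on the plus strand): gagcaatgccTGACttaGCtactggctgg
Psmd9 (chr5:123228149-123228177, gene on the plus strand): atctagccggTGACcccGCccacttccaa
Psme4 (chr11:30771758-30771786, gene on the plus strand): gctcttctggTGACgctGCagccgcagcg
Psmb5 and Psmb6 had no peak. Psmc6, Psmd9, Psme4 and Psmd12 had one, and among those shown only the Psmd9 stretch lay in it (28 of 29 bases).

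Divergent neighbours were frequent at the members. A protein-coding gene on the other strand started within 1 kb at 10 of the 50 members (20%) and at 9% of all genes. Of these 10 members 6 had a peak (Psma7, Psmb1, Psmc2, Psmc5, Psmd13 and Psmg2), and 79.5% of all divergent genes did. Those without one were Psma2, Psmb9, Psmd10 and Psme2. Of the 40 members with no such neighbour 25 (62.5%) had a peak, against 40.6% of all such genes. A peak was shared with the window of another gene at 7 members (22.6% of those with a peak) and at 22.5% of all genes with one. At these 7, which add Psma4 to the 6 above, the list cannot tell which of the genes a peak belongs to.

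The ribosomes, as other large housekeeping complexes, had shares of genes with a peak above the 62.0% of all members, with intervals that overlapped. The sets are not alike, since the members also include immune or tissue-restricted genes, activators, inhibitors, assembly factors and Psmc3ip. Of 88 genes of the cytosolic ribosome, 71 had one (80.7%, interval 71.2 to 87.6%), with a median rank of 4477. Of 78 genes of the mitochondrial ribosome, 56 did (71.8%, interval 61.0 to 80.6%), with a median rank of 6689. Regulatory genes of the proteasome, at 88.2%, had an interval that overlapped both, and the constitutive core, at 57.1%, also did. The immune or tissue-restricted genes, with an upper bound of 43.4%, lay below both intervals.

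Of 28 other genes of the ubiquitin and proteasome pathway, 23 had a peak (82.1%, interval 64.4 to 92.1%), with a median rank of 2595 and a median length of 950 bp. The shuttle gene Ubqln1 was at rank 150 with 1100 bp and Zfand5, whose product stimulates the proteasome, at rank 307 with 1750 bp. The ubiquitin gene Ubb was at rank 1255 with a peak of 1850 bp. Pomp, which matures the core, was at rank 6266, the ubiquitin receptor Adrm1 at 4538, the small lid protein Sem1 at 7323 and the deubiquitinase Usp14 at 11022. Of the genes that regulate proteasome synthesis, Nfe2l2 was at rank 1008 and the protease gene Ddi2 at 1604, while Nfe2l1 and Ngly1, whose product removes sugar chains from Nfe2l1, had no peak. The antigen presentation genes Tap1, Tap2 and Erap1 were the others without one.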

How the data were processed

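HDAC1 ChIP-seq of limb buds (4 ChIP and 3 input samples) was analysed from 1 deposited list of peak coordinates. Per the labels, reads were aligned to mm10 with Bowtie2 2.2.5, and per the methods of the study the authors called peaks with CisGenome against the inputs. The deposited columns are coordinates, with no count, signal or p-value, so the depth behind a peak is unknown and a site with no peak may be bound below the threshold. Rank is the order of the list, which no column states and which the legend of the study's own peak table calls rank ordered. That legend also names a fold change and a false discovery rate for each peak, which were not used here. Coordinates were read as 1-based with both ends included, although starts in steps of 50 bp could be shifted by 1 bp. No other column was present.

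Members were matched to GENCODE M21 (basic, protein-coding transcripts on GRCm38) by symbol. Members, classes and gene lists were chosen with earlier results of these data known, and the class of each member follows its known role. A gene had a peak when a peak overlapped, by at least 1 bp, a window reaching 2 kb upstream and 1 kb downstream of any of its TSS. Shares have 95% Wilson intervals, medians have order-statistic intervals, and no significance test was run, since genes are not replicates. Promoter composition was read from GRCm38, and motifs on both strands of RefSeq promoters of GRCm38.p6 (42 of 50 members and 16316 of 21851 genes). Printed upstream sequences were restricted to runs of at least 40 bases outside annotated exons, and a printed sequence needed an entry in that table.

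Named with full values were the best-ranked member of each class, the 5 longest peaks, every member without a peak and the members nearest the window limit, and all others by rank. Alternatives were windows of 500 bp and 5 kb, other sets of TSS, the first 7673 peaks, stricter overlaps, merged peaks and, added after the data were seen, promoters at the RefSeq start. Tested on simulated data, 2000 of 2000 overlap calls equalled a base-by-base count and 200 of 200 placed motifs were found. Python 3.11.15, numpy 2.4.6, pandas 2.3.3, scipy 1.17.1 and matplotlib 3.10.9 were used.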

Additional observations from a re-analysis of the deposited data

How the results depend on the processing

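Of 67 values recomputed under the alternatives, 57 stayed within the interval of the main value and 10 moved. Staying says little for the small classes, whose intervals are wide. Activator, inhibitor and assembly genes stayed in this sense with 30.8% against 53.8% (5-prime end only). Immune or tissue-restricted genes did with 20% against 0% (5 kb on both sides). With the first 7673 peaks the share with a peak was 34.0% for all members, 41.2% for regulatory genes and 30% for all protein-coding genes, and the median rank became 3085, since lower ranks were left out. On this setting 14 members lost their peak, and core genes were at 35.7%. When the peak had to cover the TSS the shares were 44.0%, 64.7% and 32.8%. For all protein-coding genes the share was also 42.7% with 500 bp on both sides, 46.2% with 5 kb on both sides and 41.6% with the 5-prime end of the gene only. With that end only, Psma6, Psmd5, Psmd9 and Psmf1 lost their peak and the members' share was 54.0% (30.8% for activator, inhibitor and assembly genes). Without Psmc3ip it was 61.2% and without Psme2b 63.3%. The order regulatory, core, immune held in all of these settings. The intervals of regulatory and immune genes overlapped with the first 7673 peaks and when the peak had to cover the TSS. No paired analysis was possible because the peaks of the 4 ChIP samples are 1 pooled list, with no processed values for single samples used here, and for the same reason no replicate could be left out. The depth behind a peak is unknown.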

Other observations

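Members were unevenly spread over the genome. Chromosome 11 held 10 members, of which 8 had a peak, where 49.8% of its 1638 protein-coding genes did. Chromosome 14 held 6 members, of which Psmc6 was the only one with a peak, where 38.8% of its 898 genes did. The members without a peak there were Psmb5, Psmb11, Psmd6, Psme1 and Psme2. The chromosomes were picked after the values were seen.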
